A study of Rattus norvegicus with 12 samples.

Results

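Citrate synthase, isocitrate dehydrogenase, 2-oxoglutarate dehydrogenase, succinyl-CoA ligase, fumarase and malate dehydrogenase are the enzymes described here, through 9 genes of the tricarboxylic acid (TCA) cycle: Cs, Idh3a, Idh3b, Idh3g, Idh2, Ogdh, Suclg1, Fh and Mdh2. They were chosen by name alone, as every spot that is not a control and carries one of these gene names (Fh also under its other name Fh1), whatever its signal. This gave 10 probes in 20 spots per array, of 45598 distinct probes under 35901 names on the array. The samples were cultures of N27, an immortalised rat cell line made from midbrain tissue and labelled as dopaminergic neurons, grown to 80% confluence. In 7 cultures, numbered KO 1 to KO 7, the voltage-dependent anion channel 1 gene Vdac1 had been removed with CRISPR; 5 wild-type cultures, WT 3, WT 5, WT 6, WT 7 and WT 8, served as the control. The labels name no other allele or agent in either group. The number of KO clones, the position of the edit within Vdac1 and how far the cultures were grown apart are not given in the sources used here. The p-values measure only the spread between these samples, which may be technical.

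The TCA cycle runs in the mitochondrial matrix. It oxidises the acetyl group of acetyl-CoA to carbon dioxide and passes the electrons to NADH and to succinate dehydrogenase, which feed the respiratory chain. VDAC1 is an abundant channel of the outer mitochondrial membrane through which pyruvate, nucleotides and other metabolites pass, so the cycle lies downstream of the traffic that the channel carries. All 9 proteins are encoded in the nucleus and imported into mitochondria, and a transcript level is no measure of flux.

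Signal was read on 12 one-colour Agilent arrays, 1 per culture, on 3 slides. A level below is the log2 of a probe's processed signal minus the log2 of that array's 75th percentile, so 0 is the 75th percentile of the array; levels of different probes cannot be set against each other. The 75th percentile itself lay between 111 and 665.5 signal units, 42.3% to 53.8% of spots were well above background, and 0 spots were saturated. Precision is limited by the number of arrays and by the spread among arrays of the same genotype. The targeted gene had 3 probes, and on each of them every KO level was below every WT level. On the brightest the KO arrays ran from 1.29 through a median of 2.33 to 2.75, against 3.14 to 3.70 in WT arrays, a difference of -1.23 (limma adjusted p = 0.0514). A second Vdac1 probe, at base 880 of its transcript, passed the threshold of 0.05 with a difference of -1.22 (limma adjusted p = 0.0437). The remaining probe, at base 630, had -1.15 and did not pass (limma adjusted p = 0.0889). All 3 were above background on all 7 KO arrays, so Vdac1 signal was lower there but not absent. Of 8 dopaminergic markers, Th, the rate-limiting enzyme of dopamine synthesis, was above background on all 12 arrays, while Ddc, Slc6a3 and En1, which also define the labelled cell type, were on none. Slc18a2 was above background on 6 KO and 3 WT arrays, Nr4a2 on 1 and 4, Pitx3 on 1 and 0, and Lmx1b on 3 and 1. The summed linear level of the 8 markers was 0.481 to 0.789 in KO arrays and 0.522 to 0.651 in WT arrays. This sum joins different probes, so it can be read only between arrays. Of 6 general neuronal markers 0 were above background on all arrays and 4 on none. On the first principal component, with 36.6% of the variance, KO 1 to KO 4 and WT 3 scored 35.4 to 47.7 and the other 7 arrays -50.0 to -15.9. This component divided the arrays by sample number and not by genotype, and results are also given below for numbers 5 to 8 alone (3 KO and 4 WT arrays).

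No probe of these TCA enzymes passed the test in KO against WT cells. Of the 10 member probes, all of which were tested, 0 were called, where limma called 184 of 17886 probes, 1.03% (111 rose, 0.621%, and 73 fell, 0.408%). At an unadjusted p under 0.05 the members had 0 of 10 as well, against 15.8% of all probes. The KO and WT levels overlapped on all 10 probes, while 2.61% of all probes had groups that did not overlap. In 8 of the 10 the KO mean was the higher one, as it was in 54.1% of all probes. The median difference over the 10 probes was 0.19, against 0.03 over all probes tested, and single probes lay between -0.08 and 0.25 on the log2 scale (limma adjusted p from 0.333 to 0.972). Their 95% intervals reached as low as -0.61, or 0.653 times the WT level, at the dimmer Ogdh probe. The highest bound was 0.70, or 1.63 times, at Mdh2. Changes inside these intervals cannot be told from no change in this fit, which has no covariates. A lower signal from fewer transcripts per cell and one from fewer cells that express a gene cannot be told apart in such cultures.

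**Figure D1:**
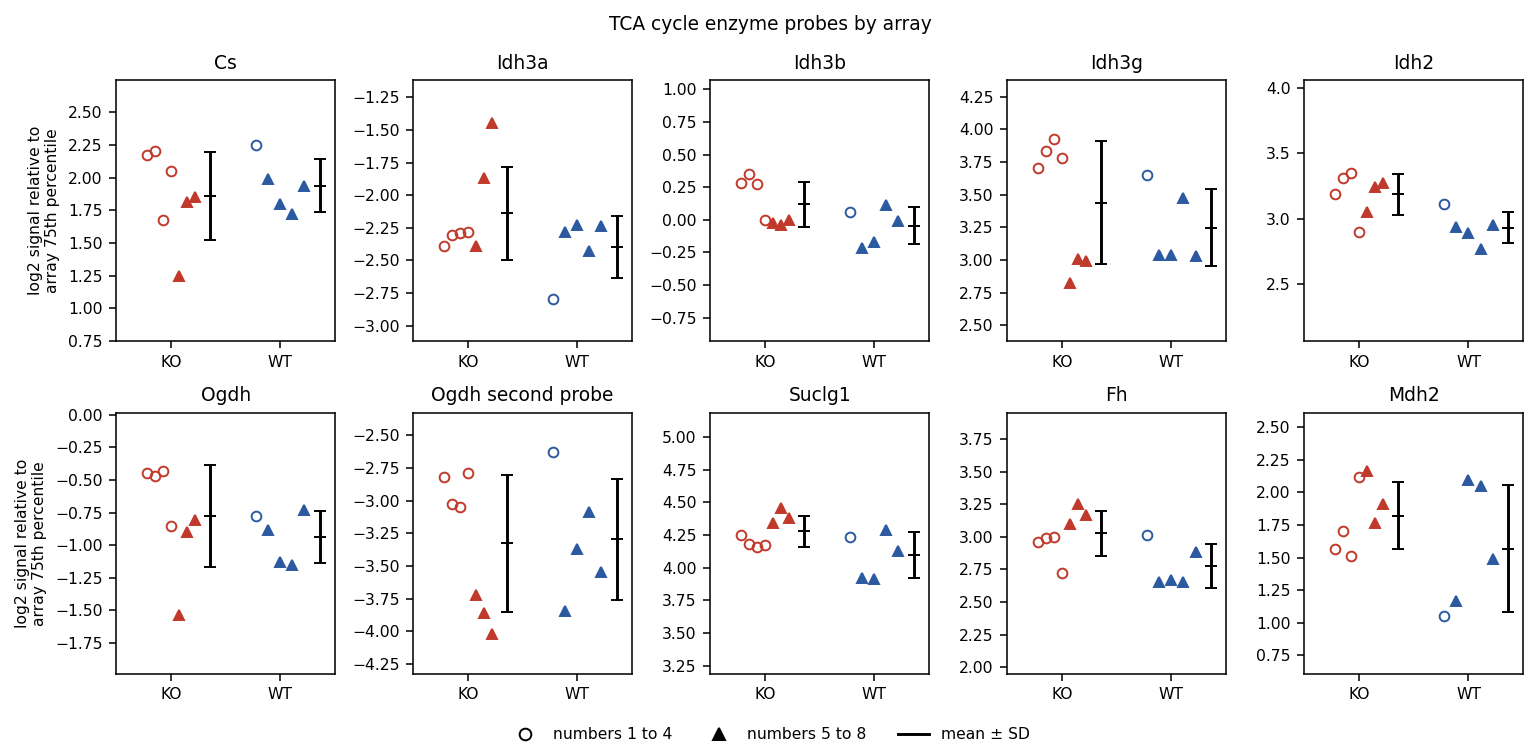
Levels of the 10 probes on each array (vertical axes, log2 signal relative to the array's 75th percentile; each panel spans the same number of log2 units), with KO left and WT right. Open circles are sample numbers 1 to 4, filled triangles numbers 5 to 8, and bars the mean ± SD (n = 7 KO, 5 WT). The groups overlap in all 10 panels. KO 1 to KO 4 do not overlap KO 5 to KO 7 for Idh3b, Idh3g, the second Ogdh probe, Suclg1 and Fh. The gap is widest for Idh3g and the second Ogdh probe.

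Cs makes citrate synthase, which joins acetyl-CoA to oxaloacetate at the entry of the cycle. Its probe, in 2 spots per array, matches chr7:1652129-1652188 of the rn4 build (plus strand). Cs levels in KO arrays ran from 1.24 in KO 5 through a median of 1.85 to 2.20 in KO 2, and in WT arrays they were 2.25, 1.99, 1.80, 1.72 and 1.94 (WT 3, 5, 6, 7 and 8). KO 5 was the lowest of the 12 and WT 3 the highest, and every other KO array but KO 3 lay within the WT range. Cs averaged 1.86 ± 0.33 in KO and 1.94 ± 0.20 in WT arrays (SD, n = 7 and 5), a difference of -0.08 (SE 0.18, 95% interval -0.46 to 0.30, limma adjusted p = 0.873). Without KO 5 the Cs difference was 0.023, so its sign rested on that array.

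NAD-dependent isocitrate dehydrogenase (IDH3) turns isocitrate into 2-oxoglutarate and is built from an alpha subunit, which carries most of the catalytic site, and the beta and gamma subunits, which take part in assembly and in allosteric control. The 3 subunit genes did not share one pattern over the arrays. Idh3a (probe at chr8:58155604-58155663 of rn4, plus strand) had KO levels from -2.39 through a median of -2.29 to -1.45. Its WT levels were -2.79, -2.29, -2.23, -2.43 and -2.23. KO 6 (-1.87) and KO 7 (-1.45) lay above every other array, and WT 3 lay below them all. The difference was 0.25 (SE 0.19, 95% interval -0.15 to 0.66, limma adjusted p = 0.536).

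Idh3b was measured with a probe whose match on chromosome 3 of rn4, chr3:117893568-117893751 (minus strand), spans 184 bases for 60 letters, so the letters are split over at least 1 intron and lie in spliced message. It is shown with the probe of Fh, the other member read across an intron, at chr13:91329967-91332214 (minus strand), where the match spans 2248 bases. Neither carries a mark in capitals.
Idh3b probe: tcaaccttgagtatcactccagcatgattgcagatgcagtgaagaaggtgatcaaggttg
Fh probe: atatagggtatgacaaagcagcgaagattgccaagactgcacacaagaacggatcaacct

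Idh3b levels in KO arrays ran from -0.04 through a median close to 0 to 0.35, against 0.06, -0.21, -0.17, 0.11 and -0.0084 in WT arrays. KO 1, KO 2 and KO 3 lay above every WT array, and the other 4 KO arrays lay among them. Idh3b averaged 0.12 ± 0.17 in KO and -0.04 ± 0.14 in WT arrays, a difference of 0.16 (SE 0.13, 95% interval -0.11 to 0.44, limma adjusted p = 0.561).

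Idh3g was the member with the clearest division inside the KO group. Its probe matches chrX:159701384-159701443 of rn4 (minus strand). KO 1, KO 2, KO 3 and KO 4 had Idh3g levels of 3.70, 3.84, 3.93 and 3.78, whereas KO 5, KO 6 and KO 7 had 2.82, 3.01 and 2.99. WT 3, WT 5, WT 6, WT 7 and WT 8 had 3.65, 3.03, 3.04, 3.48 and 3.03. The WT arrays thus spread between both KO sets, with WT 3 and WT 7 high and the other 3 low. Between genotypes the Idh3g difference was 0.19 (SE 0.23, 95% interval -0.30 to 0.69, limma adjusted p = 0.728), and it was -0.20 in numbers 5 to 8 alone (limma adjusted p = 0.538), the opposite direction.

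Idh2 makes the NADP-dependent isocitrate dehydrogenase of mitochondria, which supplies NADPH for glutathione and thioredoxin. With 10 spots per array it was the member measured most often, and the SD between its spots within an array was 0.0558 to 0.113. Its probe matches chr1:135876105-135876164 of rn4 (minus strand). Idh2 levels in KO arrays ran from 2.90 in KO 4 through a median of 3.24 to 3.35 in KO 3, against 3.11, 2.94, 2.89, 2.77 and 2.95 in WT arrays. KO 1, KO 2, KO 3, KO 6 and KO 7 lay above all WT arrays, while KO 4 and KO 5 lay within their range. Idh2 averaged 3.19 ± 0.16 in KO and 2.93 ± 0.12 in WT arrays, a difference of 0.25 (SE 0.12, 95% interval -0.01 to 0.52). Its adjusted p of 0.333 (limma, unadjusted p = 0.0567) was the lowest among the members and did not pass.

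Ogdh makes the E1 subunit of the 2-oxoglutarate dehydrogenase complex, which forms succinyl-CoA. It had a pair of probes under its name on chromosome 14, on the plus strand, at chr14:87090708-87090767 (base 3176 of its transcript) and chr14:87092440-87092499 (base 5170 of a predicted variant). On the brighter, Ogdh levels in KO arrays ran from -1.54 in KO 5 through a median of -0.81 to -0.43 in KO 3, and in WT arrays they were -0.77, -0.88, -1.13, -1.16 and -0.73. KO 1, KO 2 and KO 3 lay above all WT arrays and KO 5 below them all. The difference was 0.16 (SE 0.19, 95% interval -0.26 to 0.57, limma adjusted p = 0.740).

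The second Ogdh probe was the only member probe not above background on every array: 5 of 7 KO arrays and 5 of 5 WT arrays were, the exceptions being KO 5 and KO 7. KO 1 to KO 4 had -2.82, -3.02, -3.05 and -2.78, and KO 5, KO 6 and KO 7 had -3.72, -3.86 and -4.02. The WT levels were -2.63, -3.85, -3.37, -3.08 and -3.54, with WT 3 the highest of all 12. Between genotypes the difference was -0.03 (SE 0.27, 95% interval -0.61 to 0.55, limma adjusted p = 0.972). A further probe is named in the files by a transcript identifier only, which ties to Ogdh through the RefSeq gene table, and lies between the other two at chr14:87091514-87091573 (base 3957). It averaged 1.75 ± 0.14 in KO and 1.82 ± 0.25 in WT arrays, a difference of -0.07 (SE 0.14, limma adjusted p = 0.868). No Ogdh probe passed, and the signs of their differences were not the same.

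Suclg1 makes the alpha subunit of succinyl-CoA ligase, the step that yields ATP or GTP directly. Its probe matches chr4:106601409-106601468 of rn4 (plus strand). Suclg1 levels in KO arrays ran from 4.16 through a median of 4.25 to 4.46, against 4.24, 3.92, 3.92, 4.29 and 4.13 in WT arrays. KO 5, KO 6 and KO 7 lay above all WT arrays, while KO 1 to KO 4 lay within their range. The Suclg1 difference was 0.18 (SE 0.12, 95% interval -0.08 to 0.44, limma adjusted p = 0.495). It was positive in 27 of 28 alternative settings, with 0.037 in the deposited value table, and -0.0059 with quantile normalization.

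Fh makes fumarase, which hydrates fumarate to malate, and was read with the probe printed above. Fh levels in KO arrays ran from 2.72 in KO 4 through a median of 2.995 to 3.25 in KO 6, and in WT arrays they were 3.02, 2.65, 2.67, 2.66 and 2.88. The 4 WT arrays other than WT 3 lay at 2.88 or below, and every KO array but KO 4 lay above 2.88. Fh averaged 3.03 ± 0.17 in KO and 2.78 ± 0.17 in WT arrays, a difference of 0.25 (SE 0.13, 95% interval -0.03 to 0.53, limma adjusted p = 0.365). In numbers 5 to 8 alone, which leaves out KO 4 and WT 3 among others, the Fh difference was 0.46 (limma adjusted p = 0.117, unadjusted p = 0.0118).

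Mdh2 makes the mitochondrial malate dehydrogenase, which regenerates oxaloacetate and serves the malate-aspartate shuttle. Its probe matches chr12:22025592-22025651 of rn4 (minus strand). Mdh2 levels in KO arrays ran from 1.51 in KO 3 through a median of 1.77 to 2.17 in KO 5, against 1.05, 1.16, 2.09, 2.05 and 1.48 in WT arrays. The 4 arrays of slide 3 (KO 4, KO 5, WT 6 and WT 7) lay between 2.05 and 2.17, above the other 8 arrays, which lay between 1.05 and 1.91. This pattern was noticed after the values were seen; it held for 1 of the 10 member probes and for 3.66% of all probes. Slide 3 was scanned on a different day from slides 1 and 2 and had the lowest 75th percentiles (111 to 180 signal units, against 206 to 665.5), and their part in the result was not tested. The Mdh2 difference was 0.25 (SE 0.21, 95% interval -0.20 to 0.70, limma adjusted p = 0.594), and with slide as a block it was 0.35 (limma adjusted p = 0.178). Within slides 1, 2 and 3 it was 0.57, 0.43 and 0.07, and on each slide every KO array lay above every WT array. That held for 3 of the 10 member probes (Idh2, Fh and Mdh2), beside 4.55% of all probes; the slides hold only 1 to 3 arrays of a genotype, and it was noticed after the values were seen.

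**Figure D2:**
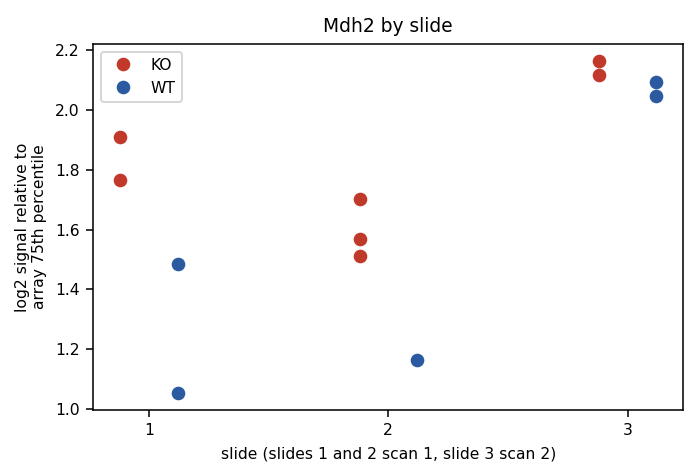
Mdh2 level (vertical axis, log2 signal relative to the array's 75th percentile) of each array by slide, KO left of WT within each slide. The 4 arrays of slide 3 lie between 2.05 and 2.17, above the other 8, and within each slide the KO arrays lie above the WT arrays.

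Each slide held both genotypes, 2 KO and 2 WT arrays on slides 1 and 3 and 3 KO arrays and 1 WT array on slide 2. With slide as a block, limma called 0 of the 10 member probes, beside 2.51% of all probes. At an unadjusted p under 0.05 there were 3 of 10 (Idh2, Fh and Mdh2), beside 18.7% of all probes, with differences between -0.13 for Cs and 0.35 for Mdh2. Fh, Idh2, Suclg1 and Mdh2 had higher KO means within all 3 slides. The share of all probes that did so is not given here, so this count cannot be called unusual. Within slides 1, 2 and 3 the differences were 0.26, 0.33 and 0.25 for Fh, 0.22, 0.34 and 0.15 for Idh2, and 0.24, 0.28 and 0.16 for Suclg1. The other members did not keep their sign across slides. Idh3g had -0.34, 0.79 and 0.05 in slides 1, 2 and 3, the second Ogdh probe -0.86, 0.88 and -0.03, and Idh3a 0.86, -0.05 and -0.01. Cs had -0.26, 0.03 and -0.11, Idh3b -0.04, 0.52 and 0.02, and the brighter Ogdh probe -0.10, 0.43 and -0.05. Within slide 2 limma called Idh3g (adjusted p = 0.0482) and the second Ogdh probe (adjusted p = 0.0437), 2 of 10, beside 11.4% of all probes, and 5 of 10 had an unadjusted p under 0.05, beside 33.9%. There the KO arrays are KO 1, KO 2 and KO 3 and the lone WT array is WT 5, so genotype and sample number cannot be told apart, and all of the spread comes from the KO arrays, with WT 5 assumed to vary like them. Within slides 1 and 3 limma called 0 of all probes, members included. At an unadjusted p under 0.05 there was 1 member of 10 on slide 1, beside 2147 of all 17886 probes, and 0 of 10 on slide 3, beside 5.33%.

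**Figure D3:**
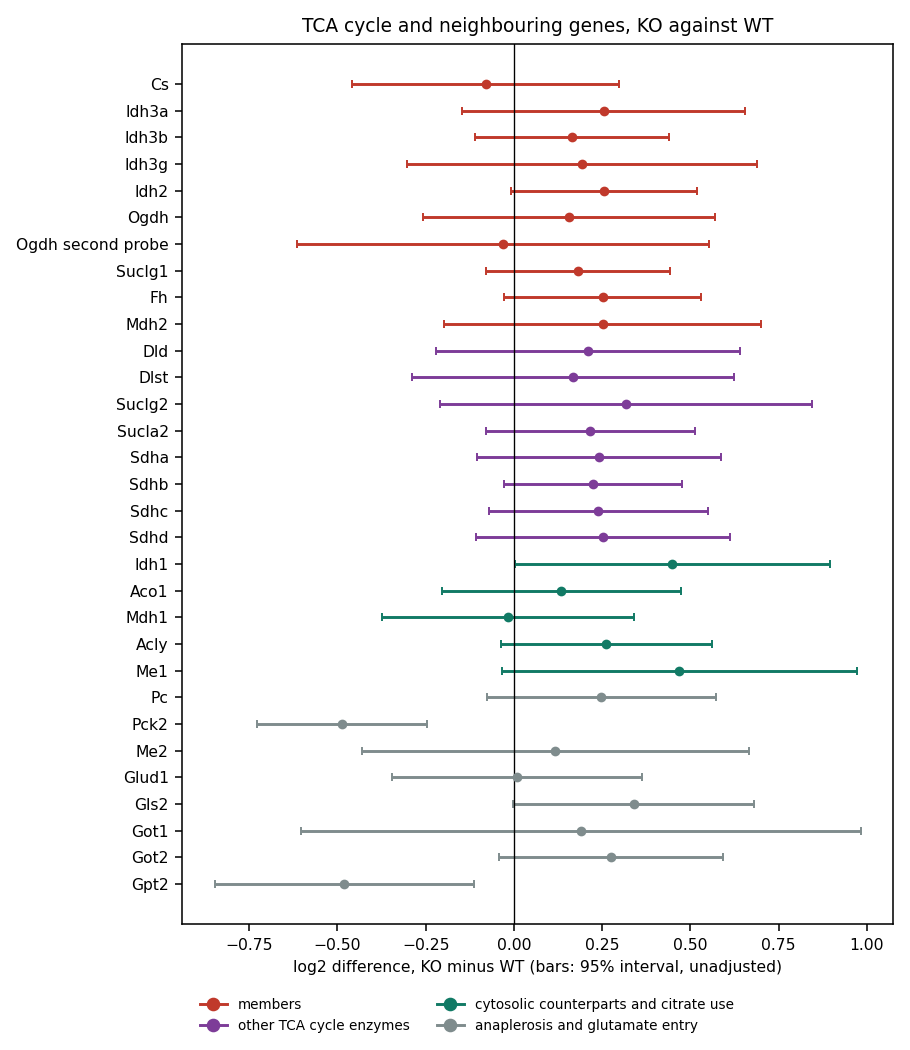
Difference of mean log2 signal, KO minus WT (horizontal axis), with 95% intervals that are not adjusted for the number of probes, for the 10 member probes and for 21 neighbouring genes in 3 lists. Of the member intervals 10 of 10 include 0, the Pck2 and Gpt2 intervals lie below it, and the Idh1 interval lies just above it.

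The KO arrays were also compared with each other, KO 1 to KO 4 with KO 5 to KO 7, to describe how the members vary among knockout cultures. This division follows the sample numbers but was chosen from the way these arrays fell apart in earlier results, so its p-values are a description and not independent evidence. The targeted gene divided them too: on each of its 3 probes the sets did not overlap, and on the brightest, Vdac1 averaged 2.55 ± 0.18 in KO 1 to KO 4 and 1.42 ± 0.19 in KO 5 to KO 7, a difference of 1.14 (SE 0.16, limma adjusted p = 0.00223). Its part in the members' differences was not tested. Limma called 26.2% of all probes in the comparison, 10.5% higher and 15.8% lower in KO 1 to KO 4. Of the members it called 2 of 10, both higher in KO 1 to KO 4, a share near that of all probes, and 3 of 10 had an unadjusted p under 0.05, beside 39.9% of all probes. Idh3g was higher by 0.87, or 1.83-fold (SE 0.12, 95% interval 0.59 to 1.16, limma adjusted p = 0.00252), and KO 4 and KO 5, which lay on the same slide, differed by 0.96. The second Ogdh probe was higher by 0.95, or 1.93-fold (SE 0.14, 95% interval 0.63 to 1.27, limma adjusted p = 0.00281), with 0.94 between KO 4 and KO 5; of KO 5 to KO 7 only KO 6 was above background there. Neither call held with normexp background correction, where the differences were 0.95 for Idh3g (limma adjusted p = 0.105) and 0.26 for Ogdh (limma adjusted p = 0.508).

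Other members also differed between the sets without a call. The brighter Ogdh probe was 0.53 higher in KO 1 to KO 4 (limma adjusted p = 0.0974) and the one at base 3957 was 0.16 higher (limma adjusted p = 0.391). Differences between the Ogdh probes were not tested. Idh3a had the opposite sign, with -0.42 (limma adjusted p = 0.180). Sets that did not overlap were found for 5 of the 10 member probes, beside 37.1% of all probes: Idh3g, Idh3b and the second Ogdh probe higher in KO 1 to KO 4, and Suclg1 and Fh lower there. The Idh2 difference between the sets was -0.00035, with a 95% interval of -0.35 to 0.35.

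**Figure D4:**
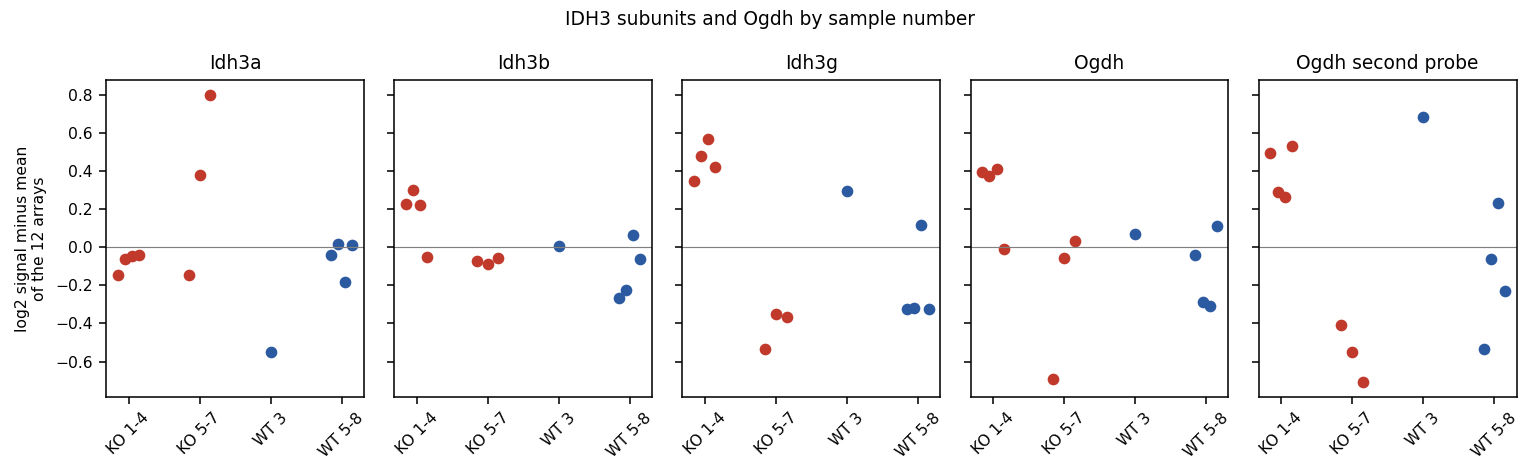
Levels of the IDH3 subunits and of both Ogdh probes as differences from each probe's mean over the 12 arrays (vertical axis, log2), for KO 1 to 4, KO 5 to 7, WT 3 and WT 5 to 8; each point is 1 array. Idh3g, the second Ogdh probe and, by a narrow gap, Idh3b separate the KO sets without overlap. For Idh3a, KO 6 and KO 7 are the highest arrays, and KO 5 lies within the range of KO 1 to 4.

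In numbers 5 to 8 alone (KO 5 to KO 7 against WT 5 to WT 8) limma called 0 of the 10 member probes, against 4.19% of all probes, and 1 member (Fh) at an unadjusted p under 0.05, against 20.7%. The differences lay between -0.41 for the second Ogdh probe and 0.46 for Fh, and 6 of 10 were positive. Whether the genotype difference differs between numbers 1 to 4 and 5 to 8 was tested with an interaction term, in which WT 3 is the lone WT array of the first set and is assumed to vary like the other groups. Limma called 0 of 10 members (1 at an unadjusted p under 0.05, Fh, beside 17.0% of all probes) and 1.68% of all probes. The Fh interaction was 0.55 (SE 0.22, limma adjusted p = 0.234) in the direction of a larger difference in numbers 5 to 8.

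Promoters are shown for Idh3g and Idh3b, subunits of the same enzyme, and for Ogdh. Both subunit genes were higher in KO 1 to KO 4 than in KO 5 to KO 7. Limma called Idh3g and not Idh3b (0.25, limma adjusted p = 0.199), and the difference between them was not tested. For Ogdh the call was on the dim second probe alone, and the other 2 probes were not called. The windows are the 250 bases before the annotated start in RefSeq's GRCr8 build, 5′ to 3′ on the gene's strand, and 8 of the 9 members matched an entry, all but Idh3a. Capitals mark the letters of 5 motifs searched on both strands, with overlapping matches merged: the GC box GGGCGG, the ETS core CCGGAAG, the NRF1 core TGCGCA, the ERR half-site AAGGTCA and the CRE core TGACGT. The windows lie at chrX:156675483-156675732 (minus strand), chr3:137939991-137940240 (minus strand) and chr14:85363781-85364030 (plus strand).
Idh3g promoter: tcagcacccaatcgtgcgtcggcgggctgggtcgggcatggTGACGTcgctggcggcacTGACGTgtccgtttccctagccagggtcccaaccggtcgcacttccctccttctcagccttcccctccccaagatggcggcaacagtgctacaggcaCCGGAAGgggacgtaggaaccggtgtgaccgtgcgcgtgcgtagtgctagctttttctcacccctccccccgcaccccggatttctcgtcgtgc
Idh3b promoter: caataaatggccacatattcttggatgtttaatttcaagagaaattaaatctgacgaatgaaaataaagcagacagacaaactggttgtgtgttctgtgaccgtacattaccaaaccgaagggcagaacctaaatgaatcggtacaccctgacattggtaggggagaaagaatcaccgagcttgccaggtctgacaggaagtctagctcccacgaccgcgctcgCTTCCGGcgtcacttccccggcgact
Ogdh promoter: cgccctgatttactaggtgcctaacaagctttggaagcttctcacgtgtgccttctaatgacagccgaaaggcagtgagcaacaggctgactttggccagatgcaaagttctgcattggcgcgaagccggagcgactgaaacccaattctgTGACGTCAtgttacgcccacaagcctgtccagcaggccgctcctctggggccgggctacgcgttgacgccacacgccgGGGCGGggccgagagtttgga

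The Idh3g window held 2 matches to the CRE core and 1 to the ETS core, and the Idh3b window 1 to the ETS core. The Ogdh window held 1 GC box and the palindrome that matches the CRE core on both strands. Among the 8 members with an entry, 5 held a CRE core (Suclg1, Mdh2, Fh, Ogdh and Idh3g), beside 6.95% of all 33469 windows. The ETS core was in 3 (Idh3b, Mdh2 and Idh3g), beside 7.27% of all windows, and the GC box in 5 (Idh2, Cs, Mdh2, Fh and Ogdh), beside 30.5%. The NRF1 core and the ERR half-site were in 0 of the 8, beside 6.14% and 3.99% of all windows. These are matches of letters and say nothing of binding.

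Other enzymes of the cycle and its neighbours were followed in 3 lists of 24 genes, of which 21 were tested, each through its brightest probe. Limma called 0 of the 21 in KO against WT cells, beside 1.03% of all probes. At an unadjusted p under 0.05 there were 3, beside 15.8% of all probes. A higher KO mean was found for 18 of 21, beside 54.1% of all probes, and this share also stands beside the counts of each list below. In the list of other TCA cycle enzymes 8 of 9 genes were tested (the exception, Ogdhl, was above background on 2 KO arrays and 0 WT arrays), 0 rose and 0 fell, and all 8 means were higher in KO cells, by a median of 0.23. The 4 subunits of succinate dehydrogenase, which oxidises succinate and hands the electrons to ubiquinone, lay between 0.22 and 0.25 (limma adjusted p from 0.374 to 0.492). Sdhb, its iron-sulphur subunit, had the smallest p of the list. Sdhb levels in KO arrays ran from 1.47 through a median of 1.59 to 1.73, against 1.60, 1.38, 1.41, 1.11 and 1.31 in WT arrays, so WT 3 lay within the KO range and the other WT arrays below it.

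Among 5 genes of cytosolic counterparts and citrate use, all tested, 0 rose and 0 fell, 4 had higher KO means, and the median was 0.26. Idh1, the cytosolic NADP-dependent isocitrate dehydrogenase, had the smallest p of them. Idh1 averaged -1.71 ± 0.25 in KO and -2.16 ± 0.48 in WT arrays, a difference of 0.45 (SE 0.21, limma adjusted p = 0.314). Among 10 genes of anaplerosis and glutamate entry, 8 were tested (Pck1 and Me3 were above background on 0 arrays), 0 rose and 0 fell, 6 had higher KO means, and the median was 0.15.

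Pck2, the mitochondrial phosphoenolpyruvate carboxykinase that draws oxaloacetate out of the cycle, had the smallest p of all 3 lists. Pck2 levels in KO arrays ran from 1.05 through a median of 1.31 to 1.37, against 1.65, 1.86, 1.82, 1.63 and 1.82 in WT arrays. It was the only one of the 21 genes whose KO and WT levels did not overlap, beside the 2.61% of all probes given above. The Pck2 difference was -0.49 (SE 0.11, 95% interval -0.73 to -0.25), and it missed the threshold (limma adjusted p = 0.0573). It was negative in 28 of 28 alternative settings, between -0.60 and -0.35, and called in 6 of them (limma adjusted p from 0.0293 to 0.909). Between KO 1 to KO 4 and KO 5 to KO 7 limma called Dlst (-0.80) and Suclg2 (-0.84) lower and the malic enzyme gene Me1 (0.60) higher in KO 1 to KO 4, 3 of 21 genes beside the 26.2% of all probes.

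The mean over the 9 members (for Ogdh, the brighter of its probes under that name), each centred on its own mean over the arrays, ran from -0.15 in KO 5 through 0.19 in KO 2 among KO arrays, against -0.20 in WT 5 to -0.04 in WT 3 among WT arrays. Of 10251 named genes outside the set, those closest to this profile by root mean square difference over the 12 arrays were Sec11a (0.0737), Nsun4 (0.0800), Taf10 (0.0802), Rpn2 (0.0824) and Vps28 (0.0826). Their own KO minus WT differences lay between 0.07 for Sec11a and 0.23 for Nsun4, and 0 of the 5 passed (limma adjusted p from 0.381 to 0.816).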

How the data were processed

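Total RNA extracted with Trizol was labelled with Cy3, per the labels' protocols. Per the submitters' processing notes, images were read with Agilent Feature Extraction 10.7, and the file headers name 10.1.1.1. The deposited scanner files give each spot's intensity without a log, per the file headers, after detrending by the software and with substitute values for dim spots. Flags for each spot are the other columns used. The deposited value table holds log2 values that are alike in every array once sorted, as quantile normalization leaves them.

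Uneven spots and population outliers were dropped, the log2 signals of a probe's spots averaged, and each array's 75th percentile subtracted. Probes well above background on at least 5 of 12 arrays were tested one by one with limma 3.58.1 (R 4.3.3; two-sided lmFit and eBayes fit without covariates), adjusted by Benjamini-Hochberg over 17886 probes, with a threshold of 0.05. For the members 0 values were missing. The fit was tested on simulated data. Other gene lists were named through the RefSeq gene table, and of several probes the brightest over all arrays stood for a gene; named from each list were called genes, up to 4, or else the gene with the smallest p. The members and lists were chosen with earlier results of these data known. Some genes of the lists are not reported here. Coordinates of probes are of rn4, per the file headers; no annotation of that build was used here, so exons and UTRs are not given.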

Additional observations from a re-analysis of the deposited data

Results flagged for a closer look

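Ogdh in KO 5 lay apart from the other KO arrays on its brighter probe: its level of -1.54 was the lowest of 7, the nearest being -0.90 in KO 6, and this gap was 0.577 of the group's whole range, above the critical value of 0.568 for 7 samples. KO 5 was also the lowest KO array for Cs and Idh3g. Without KO 5 the KO minus WT difference of Ogdh on this probe was 0.28 in place of 0.16, and limma did not call it (adjusted p = 0.339). Of 20 groups of levels examined, 1 lay apart in this way, where chance gives about 1 in 20.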

How the results depend on the processing

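Limma called 111 probes higher and 73 lower in KO cells. It called 73 higher with the 75th percentile taken over probes above background on all arrays, 64 in the deposited value table and 66 with quantile normalization. The calls were 196 higher and 116 lower among probes above background on all arrays, 529 and 381 with a block for numbers 1 to 4 and 5 to 8, 390 and 360 among numbers 5 to 8, 278 and 171 once slide was a block, and 1140 and 904 within slide 2. Limma called 0 and 0 without a filter on dim probes (2405 at an unadjusted p under 0.05), 0 and 0 with normexp (1407), and 0 and 0 within slide 1 (2147) and within slide 3 (954). Leaving out each array gave 13 to 429 higher and 5 to 312 lower, and any array but KO 5 moved the count of higher calls by over 1.5 times; the highest count came without WT 3.

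The titles give both genotypes the numbers 3, 5, 6 and 7. Same-numbered arrays correlated by 0.445, -0.114, 0.0666 and 0.0501 in their deviations from the group means. Only for number 3 was the same-numbered KO array the best match of the WT array. The deviations also carry the division by sample number, so they cannot decide whether the numbers pair the samples. With the replicate block limma called 0 and 0 probes (1901 at an unadjusted p under 0.05) and 0 members, and Idh3g turned to -0.11.

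Of the members limma called 0 in all alternatives (0 to 5 at an unadjusted p under 0.05) except within slide 2, with 2; leaving out each array gave 0 to 0. Over 9 probes, 1 per member (for Ogdh the brighter under its name), the median difference was 0.19 in the main fit. It was 0.34 within slide 2, 0.045 within slide 3 and 0.14 to 0.24 on leaving out each array. Fh, Idh2 and Mdh2 had a higher KO mean in all 28 alternatives, between 0.14 and 0.46, 0.13 and 0.34, and 0.07 and 0.57. Numbers 1 to 4 alone were not among these alternatives. There Fh averaged 2.92 in KO arrays, below the 3.02 of WT 3, the lone WT array, while Idh2 and Mdh2 averaged above WT 3. Idh3g turned to -0.088 with the number sets as a block, -0.20 among numbers 5 to 8 and -0.34 within slide 1. Ogdh turned to -0.0019, -0.11 and -0.10 under the same 3 settings and to -0.053 within slide 3. Suclg1 turned to -0.0059 with quantile normalization, Idh3b to -0.044 within slide 1, Idh3a to -0.045 within slide 2 and -0.010 within slide 3, and Cs and the second Ogdh probe to 0.032 and 0.88 within slide 2. Leaving out each array, Cs lay between -0.14 and 0.023 and the second Ogdh probe between -0.17 and 0.14. The cause was not tested.

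Of the 21 genes tested in the 3 lists, limma called 0 in the main fit. Pck2, of the anaplerosis list, was called among probes above background on all arrays, in the deposited value table and with array brightness as a covariate. It was also called with the number sets or slide as a block. Among numbers 5 to 8 limma called Dlst (0.66), of the other TCA cycle enzymes. Leaving out each array gave 0 to 1 calls (Pck2 without WT 3). Within slide 2, with WT 5 the lone WT array, the difference of Me1, of the cytosolic list, was 0.94. Between KO 1 to KO 4 and KO 5 to KO 7 the member calls were 1 among probes above background on all arrays, where the second Ogdh probe is not tested, 0 with normexp (1 at an unadjusted p under 0.05) and 2 to 3 on leaving out each array; these alternatives, like those of the interaction, where limma called 0 to 0 members (0 to 2 at an unadjusted p under 0.05), were chosen after seeing the data. With 1 probe per gene Ogdh is represented by the probe at base 3957.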

Other observations

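Gpt2, the mitochondrial alanine aminotransferase that links pyruvate and glutamate to 2-oxoglutarate, was next to Pck2 the gene of the 3 lists with the largest lower mean in KO cells; it is named after its values were seen. Gpt2 levels in KO arrays ran from -1.12 in KO 7 through a median of -0.85 to -0.27 in KO 4, against -0.47, -0.33, 0.12, -0.43 and -0.53 in WT arrays. KO 4 alone lay within the WT range. The difference was -0.48 (SE 0.17, limma adjusted p = 0.192), and the second probe of Gpt2 had -0.32. For Dlst, the E2 subunit of the 2-oxoglutarate dehydrogenase complex, the brightest probe had 0.17 and the others 0.60 and 0.63. Limma called 0 of these other probes.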
